A study of Mus musculus with 4 samples.

Results

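Glycolysis splits glucose into pyruvate in the cytosol, and pyruvate is then reduced to lactate by lactate dehydrogenase or carried into mitochondria, where the pyruvate dehydrogenase complex turns it into acetyl-CoA. Flux is set mainly at the hexokinase, phosphofructokinase and pyruvate kinase steps, and pyruvate dehydrogenase kinases close the mitochondrial gate by phosphorylating the complex. In fibroblasts under oxidant load, glucose carbon is also known to be diverted from upper glycolysis into the pentose phosphate pathway, which makes NADPH. The 34 genes described here cover this route from glucose uptake to lactate export, including the enzymes that make and break the bisphosphate activator of phosphofructokinase and the 4 pyruvate dehydrogenase kinases. They were taken by name from the array with no filter on their values, and are 34 of 30175 gene names on it. The list was, however, chosen with earlier results of these data known. Each gene is given by the brightest of its probes over the 4 arrays; 23 genes had 1 probe and 11 had several, for 55 probes in all.

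Transcript levels were measured in NIH-3T3:Per2-Luc fibroblasts, a mouse fibroblast line that carries a luciferase reporter of the clock gene *Per2*, on one-color arrays that were all on 1 slide. Total RNA came from a control (0 mM H2O2, with the medium changed for fresh medium) and from cells given a cOS-pulse, a critical oxidative stress of 5 mM H2O2 for 10 min, and harvested after 4 h, 20 h or 32 h. There was 1 array per condition, no test was possible, and no p-value is given. The control carries a label of 4 h and is the only control used here, so all 3 time points are compared with the same array and the later comparisons also span the hours between.

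Signals are given as scaled log2 signals, which are the log2 intensity minus the 75th percentile of the same array, so that 0 is the level below which 75% of the probes lay. A ratio is the difference between 2 arrays on this scale, and its error (±) is the error that the scanner software gives each spot, carried over both arrays. That error covers the spot and not the spread between cultures, and with so few arrays no value has a measured biological error. Ratios compare the same probe between arrays, and no order of levels between genes is read from the signals. A gene was called at 2-fold or more.

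Of the 39429 probes, between 52.66 and 59.08% were detected on an array, and of the 34 genes 32 were detected in the control, 34 at 4 h, 33 at 20 h and 32 at 32 h. All 10 fibroblast markers were detected on every array, with median ratios to the control of -0.44 at 4 h, -0.45 at 20 h and -0.27 at 32 h. Their summed scaled signal ranged from 592.1 at 4 h to 688.5 in the control, and without its brightest marker, *S100a4*, from 298.5 at 4 h to 405.4 in the control. Of 16 markers of other cell types, between 6 and 9 were detected, and their summed scaled signal was 23.13 in the control, 35.75 at 4 h, 13.89 at 20 h and 14.24 at 32 h. Most of this sum was *Itgam*, and without it the sum was 2.753, 5.416, 3.171 and 3.165. *Epcam*, *Cdh1*, *Krt18*, *Ptprc*, *Ckm*, *Myog* and *Plin1* were detected on no array. The part of these shifts in the values below was not tested, and in bulk RNA fewer cells of a type and less RNA per cell cannot be told apart.

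At 4 h after the cOS-pulse the route did not move as a block. Hexokinase 2, *Hk2*, which phosphorylates glucose on entry, was 2.94-fold higher than in the control, and it was the only 1 of the 34 genes at least 2-fold higher. Another 4 genes were at least 2-fold lower: *Bpgm*, the mutase that makes the red cell bisphosphoglycerate, by 12.8-fold; *Pdk2*, by 5.78-fold at its brightest probe but only to -0.26 on the log2 scale at its other; *Pfkl*, by 2.16-fold; and *Pdk4*, by 2.15-fold. In the lower pathway *Gapdh*, *Pgk1*, *Eno1*, *Pkm2*, *Ldha* and *Ldhb* lay between -0.10 and 0.29 on the log2 scale. The signs of *Gapdh*, *Pgk1* and *Pkm2* changed with the scaling. Also in the lower pathway, *Pgam1* (0.46), *Pgam2* (0.55) and *Eno2* (-0.30) lay outside that range, as did the mutase *Bpgm*. Of the earlier steps, *Gpi1* (0.29) and *Pfkp* (-0.01) lay within it. All 4 pyruvate dehydrogenase kinases were lower by their brightest probes, between -2.53 and -0.56.

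The share of the 34 genes called at 4 h was 2.94% higher and 11.8% lower, against 11.1% and 8.26% of all 18506 gene names with a ratio. The share called lower is thus near the background, and no more is read from either share. The median ratio of the 34 genes was 0.05, and that of all gene names was 0.22. The split of all calls depended on the scaling, since 57.3% of the called gene names were higher with the 75th percentile but between 26 and 46.4% under the other scalings, and under those the median of the 34 genes was between -0.43 and -0.07. The median of the 34 genes was below that of all gene names by 0.17 to 0.25 under the scaling used and the 5 others. This distance, rather than the sign of the median, is what the scalings had in common. It depended on the detection rule, since the 34 genes minus all gene names gave only -0.04 without the detection filter. The authors' deposited table of ratios also gave -0.04.

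**Figure D1:**
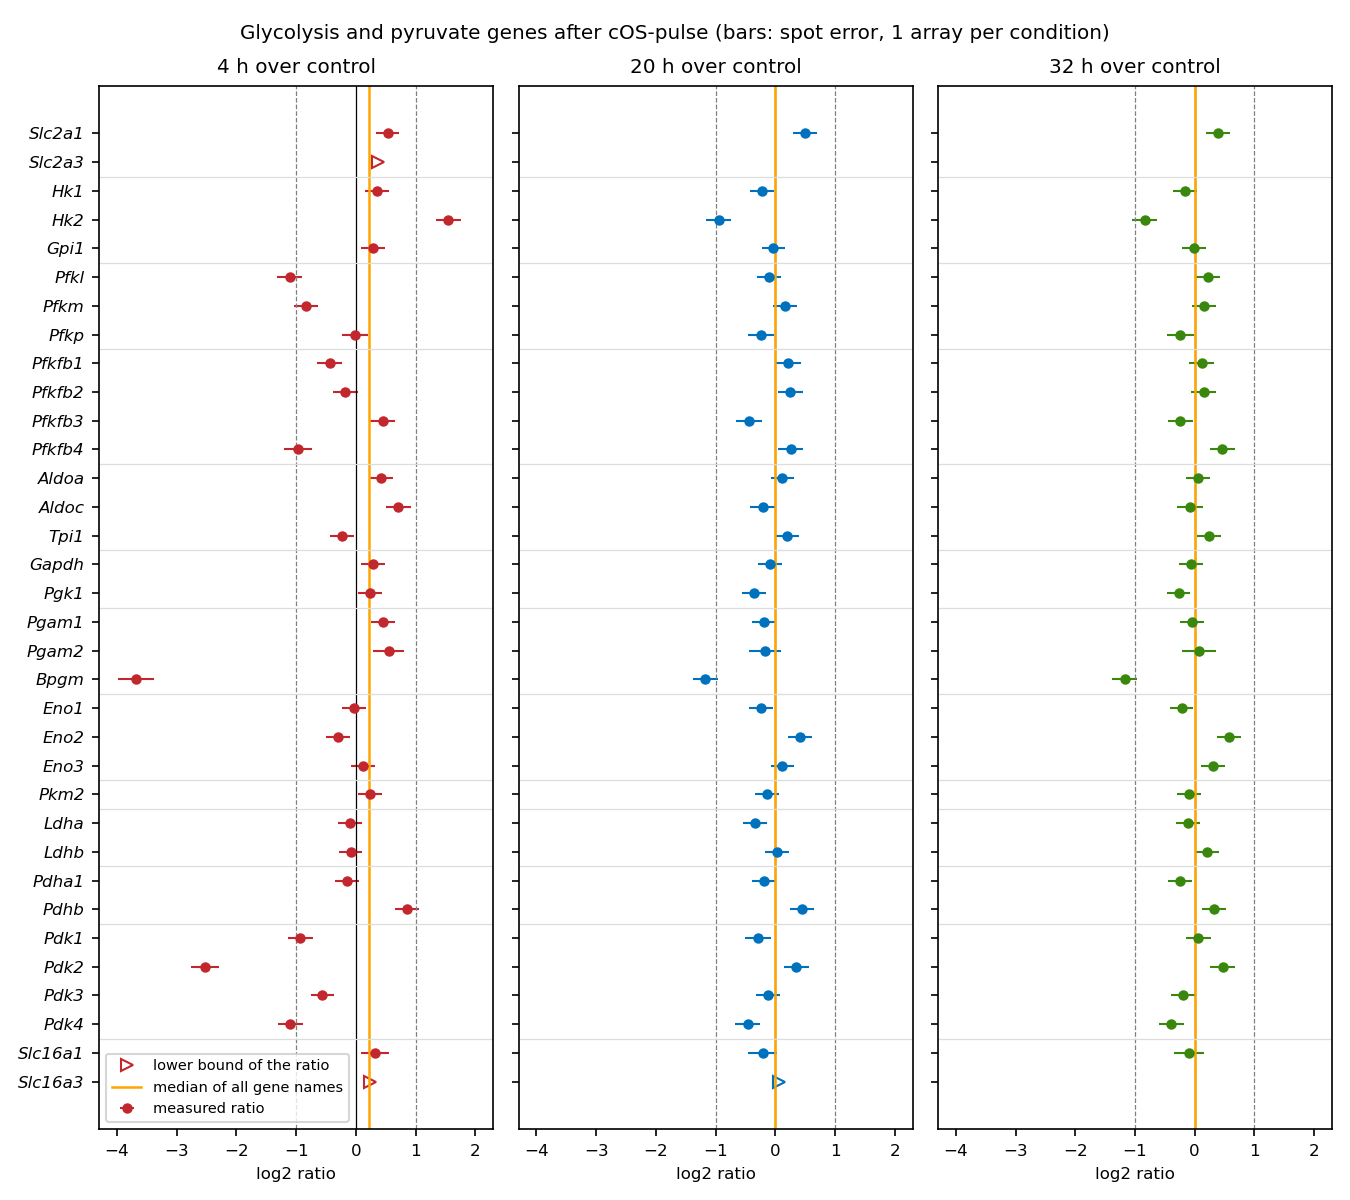
The log2 ratio of each of the 34 genes over the control at 4 h (red), 20 h (blue) and 32 h (green) is drawn on the horizontal axis, with genes ordered from glucose uptake to lactate export; bars are the spot error, open triangles are lower bounds, dashed lines are 2-fold and the orange line is the median of all gene names. At 4 h *Bpgm* (-3.68) and the brightest *Pdk2* probe (-2.53; the other, not drawn, was at -0.26) stand far to the left and *Hk2* (1.55) to the right, and at 20 h and 32 h only *Bpgm* (-1.17 at both) lies beyond a dashed line.

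Glucose enters fibroblasts mainly through *Slc2a1*, the GLUT1 transporter. *Slc2a1* read 4.83 in the control, 5.35 at 4 h, 5.32 at 20 h and 5.22 at 32 h. Its signal was above the control on all 3 later arrays, with ratios of 0.53 ± 0.20, 0.50 ± 0.20 and 0.39 ± 0.20, and the direction held under all 5 other scalings. At 4 h these scalings lowered the ratio, to between 0.12 and 0.40. At 20 h and 32 h they moved the median of all gene names up or by only -0.01, which is no check there. The high-affinity transporter *Slc2a3* was detected only on the 4 h array, at -4.39, which bounds the ratio at 1.3-fold higher or more; under quantile and spike-in scaling no bound could be given.

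At the first step of glucose capture, the signal went to both sides of the control. *Hk2* read -0.96 in the control, 0.59 at 4 h, -1.91 at 20 h and -1.81 at 32 h. It was thus above the control at 4 h (1.55 ± 0.21) and below it at 20 h (-0.95 ± 0.21) and 32 h (-0.84 ± 0.21), and the 2 late arrays lay close together. Under the 5 other scalings the 4 h ratio stayed between 1.15 and 1.54 and the late ratios between -0.96 and -0.62. *Hk1*, the housekeeping hexokinase, read 6.94, 7.28, 6.72 and 6.77 in the same order of arrays. Its 3 probes, however, gave ratios from -0.30 to 0.35 at 4 h, -0.22 to 0.24 at 20 h and -0.16 to 0.46 at 32 h. Its direction at 4 h also changed under median, quantile and spike-in scaling. The isomerase *Gpi1*, which interconverts the hexose phosphates, was at 0.29 ± 0.20 at 4 h and within 0.03 of the control later, with a 4 h direction that changed under the same 3 scalings.

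The *Hk2* probe covered chr6:82675056-82675115 (mm9, minus strand). The first 30 of its 60 bases are shown with those of the other genes called at 4 h, because each value rests on these oligonucleotides, and both *Pdk2* probes are shown because they disagree.
Hk2: tagtgagcgttttgtcatcatgtacagtag
Pfkl: ccgcaccttgagcatagacaagggtttctg
Bpgm: tgctattccagtgagcaggtcaccgtttta
Pdk4: tatgaacccatgggagactttaaactcttg
Pdk2, brightest probe: acaagtgactcacccctaggacagccctat
Pdk2, other probe: agagggagtgggggaagatagggtccaccc
The *Pfkl* probe lay at chr10:77450926-77450985 (minus), that of *Bpgm* at chr6:34454792-34454851 (plus), that of *Pdk4* at chr6:5433441-5433500 (minus) and those of *Pdk2* at chr11:94887669-94887728 and chr11:94887980-94888039 (minus), all in mm9. Whether these positions are coding or UTR sequence was not determined, since no mm9 gene models were used here.

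Phosphofructokinase, the main control point of glycolysis, is built from liver, muscle and platelet type subunits. *Pfkl*, the liver type, read -0.30 in the control, -1.41 at 4 h, -0.41 at 20 h and -0.07 at 32 h. *Pfkm*, the muscle type, read 1.30, 0.46, 1.46 and 1.45. Both subunits were lowest at 4 h (-1.11 ± 0.21 and -0.84 ± 0.20) and were within 0.23 of the control at 20 h and 32 h. With normexp background correction *Pfkl* was at -0.99 at 4 h. *Pfkm* was printed as 10 spots, whose ratios at 4 h had an SD of 0.039 and lay between -0.90 and -0.79, so that its value is below the control by far more than the scatter of spots on 1 array. With the median, spike-in or no scaling *Pfkm* also passed 2-fold, down to -1.25. These scalings moved the median of all gene names at 4 h down as well, by -0.40 to -0.27. The platelet type *Pfkp* was at -0.01 ± 0.22 at 4 h and at -0.24 at both later times.

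The bifunctional enzymes raise or lower the bisphosphate that activates phosphofructokinase, and their 4 genes differed among themselves at 4 h. *Pfkfb4* read -2.09 in the control, -3.06 at 4 h, -1.83 at 20 h and -1.64 at 32 h. With -0.97 ± 0.23 at 4 h it was just short of 2-fold lower, and it passed 2-fold under all 5 other scalings (-1.37 to -1.09). All 5 moved the median of all gene names at 4 h down (by -0.40 to -0.12), so this is no separate support. With normexp background correction *Pfkfb4* was not called. *Pfkfb3*, the isoform with the highest kinase activity, was at 0.45 ± 0.21 at 4 h and at -0.44 ± 0.21 at 20 h. *Pfkfb1* and *Pfkfb2* were at -0.44 and -0.18 at 4 h and between 0.12 and 0.25 at the later times. A further probe of *Pfkfb3* and 1 of *Pfkfb4* were not well above background on any array.

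In the aldolase and triose steps, the brain type aldolase *Aldoc* was at 0.71 ± 0.21 at 4 h, with signals of -2.14 in the control, -1.42 at 4 h, -2.34 at 20 h and -2.22 at 32 h. It stayed above the control at 4 h under the other scalings (0.31 to 0.65). The main aldolase *Aldoa* was at 0.42 ± 0.20, a direction lost under quantile scaling. Triose phosphate isomerase, *Tpi1*, was at -0.24 by the brightest probe and -0.25 by the other.

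*Gapdh*, which is widely used as a reference transcript, had the most probes. Its 8 probes gave ratios between 0.27 and 0.36 at 4 h, and the brightest read 7.45 in the control, 7.73 at 4 h, 7.36 at 20 h and 7.39 at 32 h. The probes thus lay within 0.09 of each other, yet the direction against the control at 4 h changed under median, quantile and spike-in scaling, so that the sign is a matter of scaling. The array annotation places 2 of the 8 probes on chromosomes 7 and 8, away from the other probes on chromosome 6, and copies elsewhere in the genome cannot be told apart from the gene at these. *Pgk1*, the phosphoglycerate kinase, was at 0.24 ± 0.20 at 4 h, -0.36 ± 0.20 at 20 h and -0.27 ± 0.20 at 32 h, and the 4 h sign changed under 4 of the 5 scalings. The array annotation places its only probe at chr3:57906830-57906894 although the gene is X-linked, so a processed copy cannot be told apart from the gene.

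The largest ratio of the list at 4 h was that of a mutase. *Bpgm* read -0.79 in the control, -4.47 at 4 h, -1.96 at 20 h and -1.96 at 32 h. Its ratio was -3.68 ± 0.30 at 4 h and -1.17 ± 0.21 at both later times, so the transcript was below the control on every later array and furthest below at 4 h, where its signal was near the lowest detected signal of that array (-4.94). Under the other scalings its ratio was between -4.13 and -3.81 at 4 h, between -1.19 and -0.84 at 20 h and between -1.18 and -0.99 at 32 h, so that it fell short of 2-fold at 20 h with spike-in or no scaling and at 32 h with no scaling. With normexp background correction it was -2.40 at 4 h. The glycolytic mutase proper, *Pgam1*, was at 0.46 ± 0.20 at 4 h with signals of 6.19, 6.65, 5.99 and 6.13, and the muscle type *Pgam2* was at 0.55 ± 0.26. Both were therefore on the other side of the control from *Bpgm* at 4 h.

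Enolase, which makes phosphoenolpyruvate, has a ubiquitous, a neuronal and a muscle form. *Eno1*, the ubiquitous form, was at -0.03 ± 0.20 at 4 h. *Eno2*, the neuronal form, read 1.48 in the control, 1.18 at 4 h, 1.90 at 20 h and 2.05 at 32 h. Its ratio was -0.30 ± 0.20 at 4 h, 0.42 ± 0.20 at 20 h and 0.58 ± 0.20 at 32 h, the highest of the list at 32 h. All 3 directions held under the 5 scalings. Those moved the median of all gene names down at 4 h, and later up or by only -0.01, so they are no check on these signs. *Eno3*, the muscle form, was at 0.12 at 4 h and 20 h and at 0.30 at 32 h, and its sign at 4 h changed under 4 scalings. Pyruvate kinase, carried under its older name *Pkm2*, was at 0.23 ± 0.20, -0.14 ± 0.20 and -0.10 ± 0.20, and its 4 h sign also changed under 4 scalings.

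**Figure D2:**
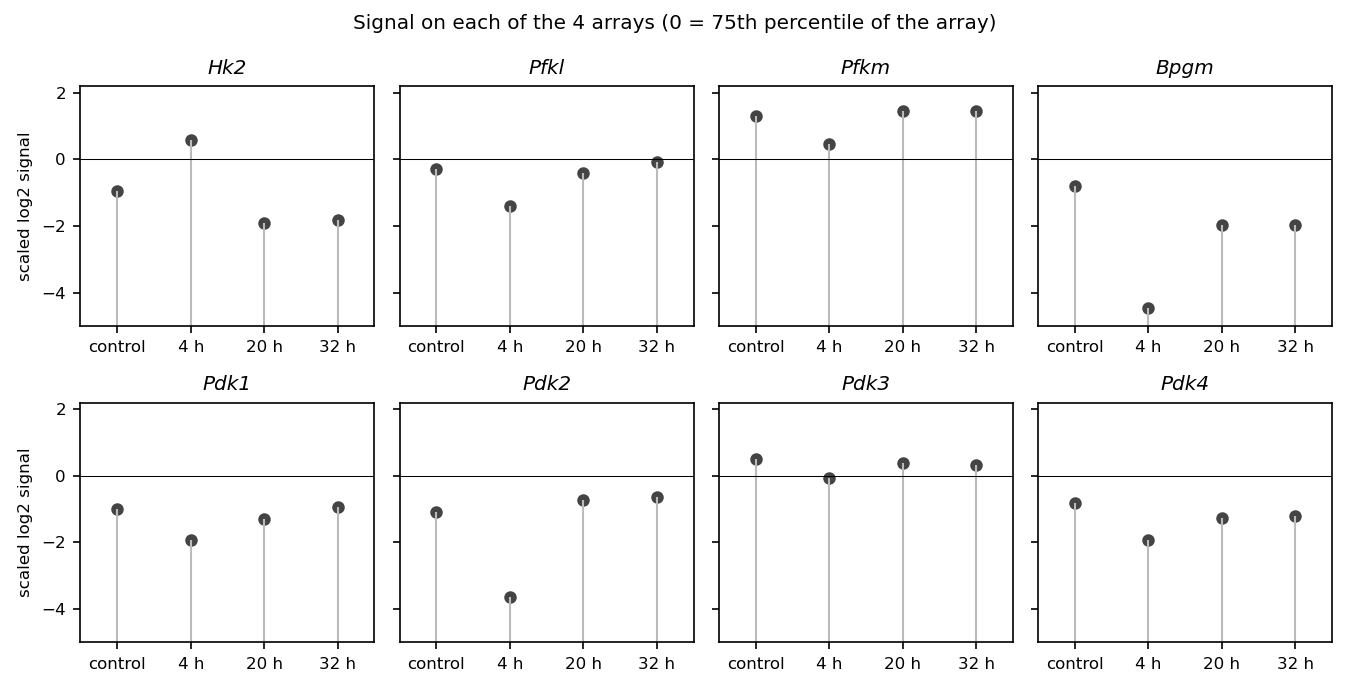
Scaled log2 signal (vertical axis; 0 is the 75th percentile of the array) of 8 genes on the control, 4 h, 20 h and 32 h arrays, 1 point per array. *Hk2* is highest at 4 h (0.59), whereas *Pfkl*, *Pfkm*, *Bpgm* and the 4 *Pdk* genes are lowest at 4 h. Of these 8 *Bpgm* alone is more than 2-fold below the control at 20 h and 32 h (-1.17 at both). It falls short of 2-fold at 20 h with spike-in or no scaling and at 32 h with no scaling.

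Lactate dehydrogenase transcripts lay close to the control at 4 h. *Ldha* read 7.15 in the control, 7.04 at 4 h, 6.81 at 20 h and 7.03 at 32 h, and its 3 probes were between -0.16 and -0.10 at 4 h. *Ldhb*, the form that favours lactate oxidation, was at -0.09, 0.03 and 0.21. The monocarboxylate transporter *Slc16a1* was at 0.32 ± 0.24 at 4 h, with a sign that changed under median and spike-in scaling. Of the 2 probes of *Slc16a3*, which exports lactate from glycolytic cells, the brightest was detected at 4 h and 20 h only and the other was at 0.49 ± 0.39 at 4 h.

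At the gate into mitochondria the transcripts of 1 function lay on the same side of the control at 4 h. Pyruvate dehydrogenase kinases phosphorylate and inhibit pyruvate dehydrogenase, and each of the 4 genes had its lowest signal at 4 h. *Pdk1* read -1.0 in the control, -1.93 at 4 h, -1.29 at 20 h and -0.94 at 32 h. *Pdk2* read -1.09, -3.63, -0.74 and -0.63. *Pdk3* read 0.50, -0.07, 0.38 and 0.31. At 4 h their ratios were -0.93 ± 0.21, -2.53 ± 0.24 and -0.56 ± 0.20, and all stayed below the control under the 5 other scalings. Each of these scalings moved the median of all gene names at 4 h down (by -0.40 to -0.12), so staying below is no check on the direction. The *Pdk1* ratio, past 2-fold each time (-1.33 to -1.01), moved with that shift. *Pdk4*, the isoform known for its rise in fasting, read -0.82 in the control, -1.93 at 4 h, -1.28 at 20 h and -1.21 at 32 h, a ratio of -1.10 ± 0.21 at 4 h that fell short of 2-fold only with normexp background correction (-0.84). The median ratio of the 4 kinases by their brightest probes was -1.02 at 4 h, -0.21 at 20 h and -0.06 at 32 h, beside 0.22, 0.00 and 0.00 for all gene names. Its size at 4 h rests on the brightest *Pdk2* probe. With the other *Pdk2* probe (-0.26) the middle values would be those of *Pdk1* (-0.93) and *Pdk3* (-0.56), both short of 2-fold.

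The size of the *Pdk2* difference depended on the probe. The brightest probe gave -2.53 ± 0.24 at 4 h and the other, 251 bases away, gave -0.26, and they are the only probes of 1 gene in the list that were more than 1 log2 unit apart at 4 h. At 20 h and 32 h the probes were closer, at 0.35 and 0.47 for the brightest and 0.22 and 0.34 for the other. The median over both probes at 4 h was -1.40.

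Of the 2 listed genes of the complex itself, 1 lay on the other side of the control from the kinases at 4 h. *Pdhb*, its beta subunit, read 2.66 in the control, 3.51 at 4 h, 3.1 at 20 h and 2.98 at 32 h. Its ratios were 0.86 ± 0.20, 0.45 ± 0.20 and 0.32 ± 0.20, all 3 probes lay between 0.58 and 1.12 at 4 h, and the 4 h direction held under the 5 scalings (0.45 to 0.73). *Pdha1*, the catalytic alpha subunit, was at -0.15, -0.19 and -0.25. Genes of the complex outside the list lay on both sides of the control at 4 h, with *Dlat* at -1.09, *Pdhx* at 0.16 and *Dld* at 0.39.

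**Figure D3:**
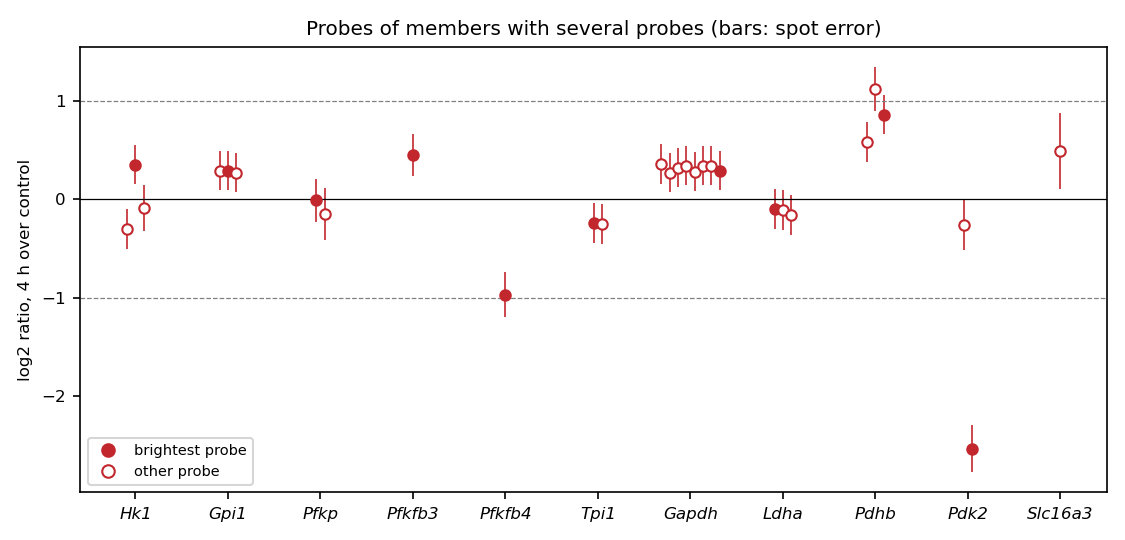
Ratios to the control at 4 h (vertical axis, log2) for each probe of the 11 genes with several probes, filled for the brightest probe and open for the others, with the spot error as bars and dashed lines at 2-fold; probes without a measured ratio are left out. The 8 *Gapdh* probes lie between 0.27 and 0.36, whereas the *Pdk2* probes lie at -2.53 and -0.26.

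At 20 h no gene of the list was at least 2-fold higher and 1 of 33 with a ratio was at least 2-fold lower, against 1.46% and 3.56% of 16963 gene names. At 32 h the counts were again 0 and 1, of 32, against 2.24% and 2.77% of 16894. The 1 gene was *Bpgm* both times, and with so few calls these shares cannot be set apart from the background. After it, the lowest ratios at 20 h were those of *Hk2* (-0.95 ± 0.21) and *Pdk4* (-0.46 ± 0.21), and they were also the next lowest at 32 h, at -0.84 ± 0.21 and -0.39 ± 0.21. The highest at 20 h were *Slc2a1* (0.50 ± 0.20), *Pdhb* (0.45 ± 0.20) and *Eno2* (0.42 ± 0.20), and at 32 h *Eno2* (0.58 ± 0.20), *Pdk2* (0.47 ± 0.21) and *Pfkfb4* (0.46 ± 0.21). These comparisons share the control array, so a low or high control value would enter each of them. The medians of the 34 genes were -0.12 and -0.03.

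The arrays at 20 h and 32 h were taken to look for circadian change. No gene of the list was at least 2-fold higher or lower at 20 h than at 32 h, against 0.947% and 2.11% of 16791 gene names. The 32 measured ratios ranged from -0.35 ± 0.21 for *Pdk1* and -0.33 ± 0.20 for *Pfkl* to 0.12 ± 0.20 for *Pdhb*, with a median of -0.06. With 1 array each, no difference between these hours can be set against a spread between cultures.

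**Figure D4:**
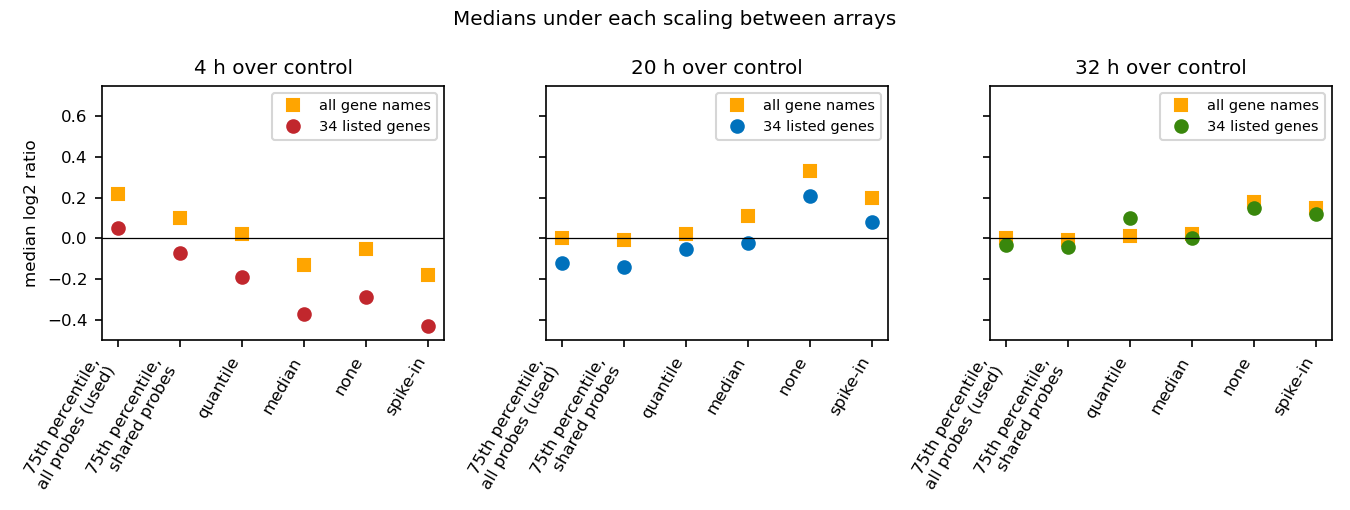
Median log2 ratio over the control (vertical axis) of the 34 genes (circles) and of all gene names (squares) under the scaling used and 5 others (horizontal axis), at 4 h, 20 h and 32 h. At 4 h the circles run from 0.05 to -0.43 and lie below the squares in every case, whereas at 32 h both lie within 0.18 of 0.

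Enzymes next to the route gave the following counts, to be read against the 11.1% higher and 8.26% lower of all gene names at 4 h. Of 24 other genes of pyruvate and lactate handling, 2 were at least 2-fold higher at 4 h, namely *Gpd1* (a bound, at least 2.10 on the log2 scale), the cytosolic glycerol phosphate dehydrogenase, and *Pdp2* (1.09), a phosphatase that reactivates pyruvate dehydrogenase. The related phosphatase gene *Pdp1* was at 0.02. Another 2 were at least 2-fold lower, *Dlat* (-1.09), the acetyltransferase of the complex, and *Pgm2l1* (-1.20), and none passed 2-fold at 20 h or 32 h. These shares, 8.33% each way at 4 h, are near the background. Of the 7 pentose phosphate pathway genes 1 was at least 2-fold higher at 4 h, *Pgd* (1.15), which makes NADPH, while their median was -0.13, and a share of 14.3% resting on 1 gene is not set apart from the background. None of the 16 citrate cycle genes passed 2-fold at any time, and their median was -0.01 at 4 h within a range of -0.59 to 0.22.

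The promoter sequences of these genes were read for 4 short motifs on both strands, from 250 bases before to 50 after the start, in the RefSeq table of GRCm38.p6. It held 33 of the 34 genes with 52 promoters. The E-box CACGTG, bound by CLOCK and BMAL1, was in 6 of the 52 (11.5%), against 7.15% of all 32851 promoters. The hypoxia response core ACGTG, which every E-box contains, was in 22 (42.3%) against 19.6%. The antioxidant response letters TGACNNNGC were in 4 (7.69%) against 12.4%, and the heat shock pair GAANNTTC in 1 (1.92%) against 7.86%. Where a gene had several promoters, some of their windows overlap, as for *Pfkfb2*, *Eno1*, *Aldoa* and *Pfkm*, so a match can be counted in more than 1 of them. These letters are a description of the window only.

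Of the 5 genes called at 4 h, 3 had a match, and their promoters are shown with that of *Ldha*, which held the most hypoxia cores; the matched letters are in capitals. The first is *Hk2* at chr6:82774405-82774704 (minus), with cores at -226 and -52 counted from the first transcribed base as 0. *Pdk2* at chr11:95041322-95041621 (minus) had an E-box at -126, *Pfkl* at chr10:78009758-78010057 (minus) the heat shock pair at -234, and *Ldha* at chr7:46845554-46845853 (plus) 2 E-boxes.
Hk2: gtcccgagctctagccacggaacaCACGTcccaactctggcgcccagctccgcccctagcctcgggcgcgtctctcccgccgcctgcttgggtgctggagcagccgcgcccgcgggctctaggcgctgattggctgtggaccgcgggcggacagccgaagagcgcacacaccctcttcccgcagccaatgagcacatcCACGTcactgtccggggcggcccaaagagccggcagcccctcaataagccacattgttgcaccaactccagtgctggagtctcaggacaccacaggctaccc
Pdk2: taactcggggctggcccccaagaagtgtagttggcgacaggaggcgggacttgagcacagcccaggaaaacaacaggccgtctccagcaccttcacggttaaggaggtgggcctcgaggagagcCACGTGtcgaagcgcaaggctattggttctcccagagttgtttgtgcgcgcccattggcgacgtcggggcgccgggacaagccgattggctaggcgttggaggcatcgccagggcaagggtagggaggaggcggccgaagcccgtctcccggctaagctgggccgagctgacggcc
Pfkl: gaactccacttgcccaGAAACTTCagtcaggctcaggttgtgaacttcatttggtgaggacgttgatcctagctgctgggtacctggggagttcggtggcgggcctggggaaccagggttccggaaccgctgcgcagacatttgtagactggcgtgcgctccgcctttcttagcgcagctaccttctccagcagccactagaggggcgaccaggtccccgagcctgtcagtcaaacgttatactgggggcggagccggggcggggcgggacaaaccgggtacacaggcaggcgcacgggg
Ldha: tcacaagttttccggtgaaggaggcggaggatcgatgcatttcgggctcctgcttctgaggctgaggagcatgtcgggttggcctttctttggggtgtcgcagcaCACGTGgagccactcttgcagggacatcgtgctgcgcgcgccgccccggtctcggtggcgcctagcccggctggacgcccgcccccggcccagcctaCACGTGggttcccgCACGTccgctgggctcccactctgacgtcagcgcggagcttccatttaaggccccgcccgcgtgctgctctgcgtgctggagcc
*Bpgm* and *Pdk4*, also called at 4 h, had none of the 4 motifs in this window. Of the 18 genes with the core ACGTG, *Hk2* was at 1.55 at 4 h, *Ldha* at -0.10 and *Pdk2* at -2.53 by its brightest probe and -0.26 by its other. Whether a motif goes with these values was not tested.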

How the data were processed

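Total RNA samples of NIH-3T3:Per2-Luc fibroblasts, 4 in all, were labelled with Cy3 and hybridised to Agilent one-color mouse arrays, 1 array per condition. The deposited scanner files give intensities from Feature Extraction 10.7.3.1, background-subtracted by the authors' software, with probe positions in mm9. The authors also deposited a table of the same values as a ratio to 1 constant per array. Both were used, the ratio table as an alternative.

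From the intensities, spots with an outlier flag (125 to 161 per array) were left out, spots of a probe were averaged as log2, and each array's 75th percentile over 39429 probes was subtracted. No spot was saturated. Detection required the software's flag for a signal well above background on 50% or more of a probe's spots. Where only 1 of 2 arrays detected it, the ratio is a bound over the higher of its dim signal and the lowest detected signal, and where neither did, no ratio was taken. The median spot error was about 10.1% of the signal. The steps were tested on simulated data. The SAM test named in the methods was not run, since there was 1 array per condition, and no batch other than the shared slide could be examined.

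All 34 genes are accounted for. Ratios with errors are given for genes at least 2-fold from the control at any time, for the 3 highest and 3 lowest at each time, and for genes whose probes differ by more than 1 log2 unit at 4 h. The genes, the lists around them and the motifs were chosen with earlier results of these data known. Alternatives were other scalings, background correction, detection rules, probe summaries and thresholds. Python 3.11.15, numpy 2.4.6, pandas 2.3.3, matplotlib 3.10.9, R 4.3.3 and limma 3.58.1 were used.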

Additional observations from a re-analysis of the deposited data

Results flagged for a closer look

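There were 10 genes on opposite sides of the control at 4 h and at a later time, by more than the spot error at both. The differences between time points were not tested. The same count over all gene names was not taken, so these 10 genes are not read as a trait of the list. Of these, 3 were at least 2-fold from the control at 4 h. *Hk2* was at 1.55 at 4 h but at -0.95 at 20 h and -0.84 at 32 h. *Pdk2* was at -2.53 at 4 h but at 0.35 at 20 h and 0.47 at 32 h, with the other probe at -0.26, 0.22 and 0.34. *Pfkl* was at -1.11 at 4 h and at 0.23 at 32 h. The others were under 2-fold at both times. *Pfkfb4* was at -0.97 at 4 h, 0.26 at 20 h and 0.46 at 32 h, and *Pfkfb3* at 0.45, -0.44 and -0.24. *Eno2* was at -0.30, 0.42 and 0.58. *Pfkfb1* was at -0.44 at 4 h and 0.22 at 20 h, and *Tpi1* at -0.24 at 4 h and 0.24 at 32 h. *Pgk1* was at 0.24, -0.36 and -0.27, and *Hk1* at 0.35 at 4 h and -0.22 at 20 h, and the 4 h sign of both changed under other scalings. The other *Hk1* probes went the opposite way, at -0.30 and -0.09 at 4 h and at 0.24 and 0.19 at 20 h.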

How the results depend on the processing

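With 1 array per condition no replicate could be left out, and the spot error does not cover the spread between cultures. No paired analysis was possible because each condition had 1 array. The count of 4 genes at least 2-fold lower at 4 h became 7 with the median, spike-in or no scaling (adding *Pfkm*, *Pfkfb4* and *Pdk1*), 6 with quantile scaling or the 75th percentile of probes detected on all arrays (adding *Pfkfb4* and *Pdk1*), 7 with the spike-in without the probe that lay furthest from the others (an alternative chosen after seeing the data), 7 at a threshold of 1.5-fold, and 2 (*Bpgm* and *Pdk2*) with normexp background correction or at 3-fold. The share of all gene names called lower, 8.26%, moved with it, to 15.4% with median, 16.6% with spike-in and 13.4% with no scaling, 11.6% with quantile scaling, 10.2% with the percentile of shared probes, 16.3% at 1.5-fold, 5.02% with normexp and 2.65% at 3-fold. The count of 1 gene higher at 4 h became 2 without the detection filter and in the deposited ratio table (adding *Slc2a3*), 3 at 1.5-fold and 0 at 3-fold. The median at 4 h, 0.05, became -0.37 with median scaling, -0.19 with quantile, -0.43 with spike-in, -0.42 with the reduced spike-in and -0.29 with no scaling. It carries no direction. At 20 h the 1 gene lower became 0 with spike-in or no scaling and at 3-fold, and 2 at 1.5-fold, and the median became 0.21 with no scaling. At 32 h the 1 gene lower became 0 with no scaling and at 3-fold, and 2 at 1.5-fold. Those 2 counts of 6 included, the other 136 counts and medians computed under alternatives moved by at most 1.5 times or by less than the spot error. Of the ratios of the 5 genes called at any time, 210 computed under alternatives moved by less than the spot error and 30 by more, and none past 2-fold reversed.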

Other observations

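Isozymes that belong to other tissues were mostly not detected. Of 14 such genes on the array, 5 were detected on at least 1 array and 9 on none. *Ldhc*, the testis form of lactate dehydrogenase, was detected at 4 h with a bound of at least 1.33 on the log2 scale over the control, where it was not well above background. *Fbp1*, a gluconeogenic phosphatase, was detected only at 32 h, with a bound of at least 2.03. *G6pc*, the catalytic subunit of glucose 6-phosphatase, was the 1 gene of these detected on all arrays, at 0.94 over the control at 4 h. Of the 10 fibroblast markers, *Pdgfra* (-1.55) and *Pdgfrb* (-1.35) were more than 2-fold lower at 4 h, or 20% against 8.26% of all gene names. At 20 h *Col1a1* (-1.06), *Col3a1* (-1.02) and *Thy1* (-1.39) were, or 30% against 3.56%. Of the 9 markers of other cell types with a ratio at 4 h, 4 were at least 2-fold higher, or 44.4% against 11.1% of all gene names. They were *Krt8* (1.17), *Cd68* (2.08), *Cdh5* (1.87) and *Adipoq* (a bound of at least 1.86). The shares of both marker lists rest on few genes, and no more is read from them.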
